A study of Bos taurus with 15 samples.

Results

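The genes described here are 10 genes that had been seen to differ between the post and the middle region of engineered meniscal tissue: HP, CHI3L1, NPTX1, FGL2, SCARA5, MSLN, TMEM158, DIPK1C, PLAA and ARPC3. They are 10 of the 38001 bovine gene rows of the expression table. Each symbol belonged to 1 identifier, and all 10 had enough counts to be among the 11834 genes tested. Because measured differences between regions chose these genes, their differences between regions are given below as a description, without a test. Tests of these genes are given only for comparisons that weigh post and middle alike.

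RNA was measured in meniscal fibrochondrocytes from cattle, which make the matrix of the knee meniscus, embedded in collagen and harvested on day 28. There were 5 groups of 3 libraries: the post and the middle region of tissue cast in an anchored mold, the post and the middle region of tissue cast in an unanchored mold, and cells in collagen without any mold. In all groups the cells had 3 days of growth medium with 10% fetal bovine serum and 25 days of chondrogenic medium with ascorbic acid at 50 µg/ml, dexamethasone and TGF-β3 at 10 ng/ml. The labels do not say whether the libraries of a group came from separate tissues or cell donors, or whether a post and a middle library came from 1 tissue. Per the labels' protocols, each region was cut further into pieces before RNA extraction, so libraries of a group could be pieces of 1 tissue, and p-values then reflect library-to-library spread alone, in part possibly technical.

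The meniscus is a fibrocartilage whose ends are anchored to bone and whose body carries load between them, and its cells are known to adapt their matrix to the strain they feel. The 10 genes do not form a pathway. HP (haptoglobin, the binder of free hemoglobin), CHI3L1 (the chitinase-like glycoprotein YKL-40, made by chondrocytes and macrophages), NPTX1 (neuronal pentraxin, which clusters receptors at synapses) and FGL2 (a fibrinogen-like protein known from immune cells) are secreted or shed. SCARA5 (a scavenger receptor that takes up ferritin), MSLN (mesothelin, a surface protein of mesothelial cells) and TMEM158 (a membrane protein induced by RAS signaling) sit at membranes. DIPK1C belongs to a family of kinase-like proteins of the secretory pathway. PLAA is a ubiquitin-binding adaptor of the VCP segregase, and ARPC3 is a subunit of the complex that nucleates branched actin filaments.

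Library totals ran from 2060781 to 7415701 counts. The 3 shallowest libraries were no mold 1, anchored middle 2 and no mold 3, so that 2 of the 3 no-mold libraries are among the least precise. Levels are given as CPM, the count scaled to a common library size, after TMM normalisation, and libraries of a group are listed in the order 1, 2, 3. Transcripts were primed at their poly(A) tail, levels were not divided by gene length, and they were compared between samples but not between genes. Fibrochondrocyte markers were well covered: all 10 listed genes, among them COL1A1, COMP and SOX9, were tested, and their sum was 27428 to 35095 CPM of the library total in anchored post against 36617 to 42016 in anchored middle, 27800 to 33331 in unanchored post against 31405 to 42684 in unanchored middle, and 27481 to 36833 without a mold. Of these 10 genes, 3 (COMP, ACAN and PRG4) were lower at the anchored post and 1 (PRG4) at the unanchored post. Of all tested genes, 1.66% and 0.38% were so (edgeR, adjusted p under 0.05). Against no mold 5 of the 10 fell and 1 rose at the same threshold, where 7.91% of all tested genes fell and 8.04% rose. On the log2 scale COL2A1 fell by 3.24, ACAN by 0.84, SOX9 by 0.79, COMP by 0.76 and PRG4 by 0.60, and DCN rose by 0.85. The sum was thus lower at the post without overlap in anchored molds and with overlap in unanchored molds, and its part in the region differences described below was not tested. LUM, also in the sum, went the other way in both mold types. Its log2 fold change of post over middle was 0.30 in anchored and 0.38 in unanchored molds (edgeR's adjusted p = 0.271 and 0.176).

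**Figure D1:**
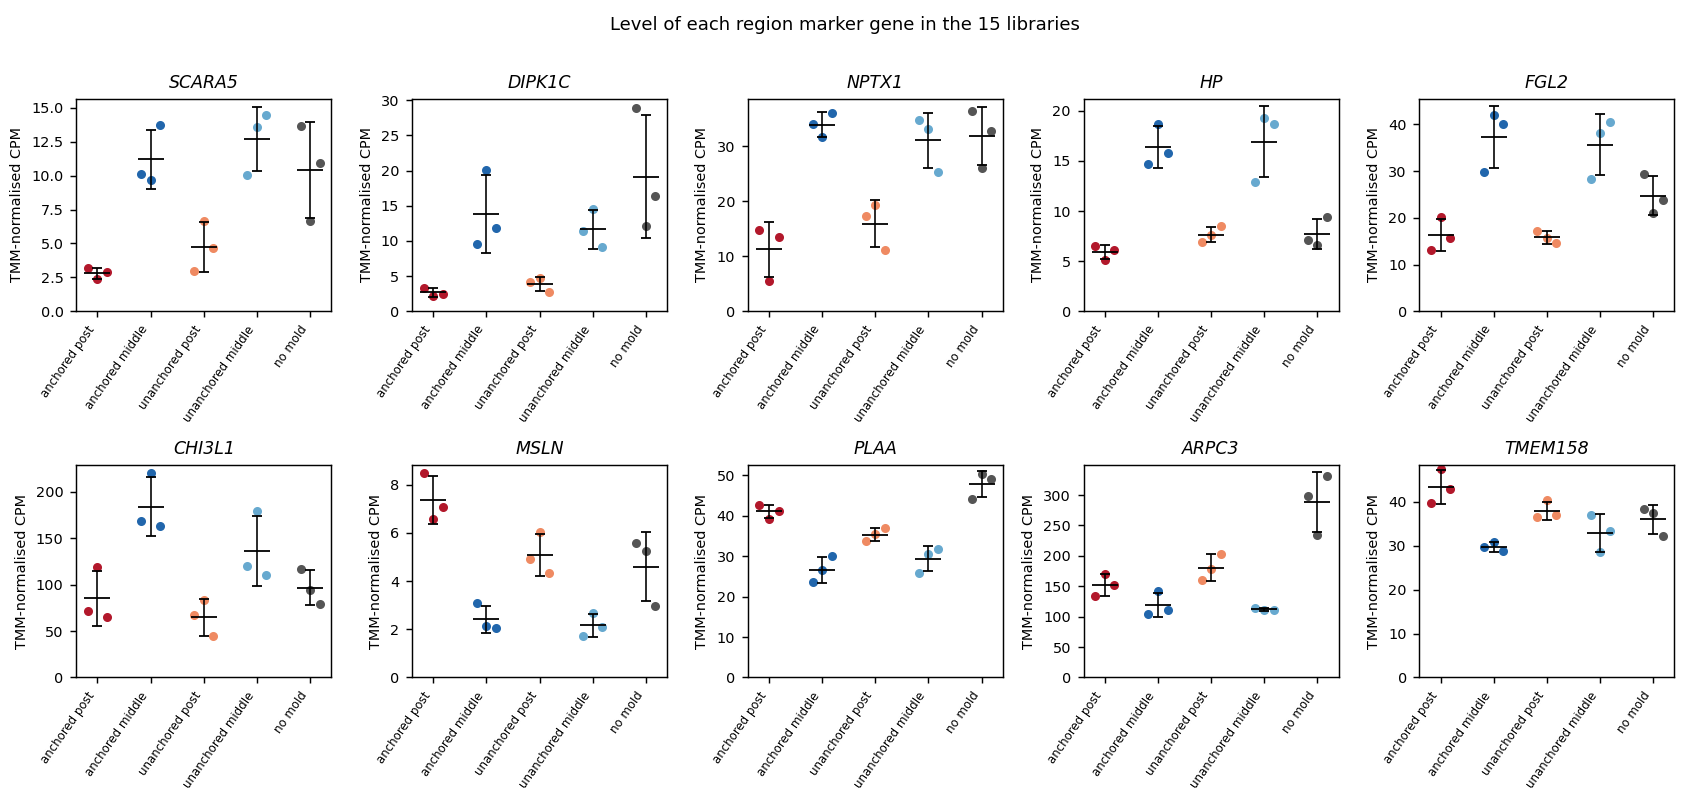
Level of each of the 10 genes in each library. The y axis is TMM-normalised CPM from 0, points are libraries, the bar is the group mean with its SD (n = 3), and groups run from anchored post to no mold. HP, CHI3L1, NPTX1, FGL2, SCARA5 and DIPK1C are lower at the post, and MSLN, PLAA, ARPC3 and TMEM158 are higher there.

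All 4 genes of secreted or shed proteins were lower at the post than in the middle in both mold types. HP (ENSBTAG00000006354) had 6.51, 5.11 and 6.15 CPM in anchored post against 14.7, 18.7 and 15.8 CPM in anchored middle, and 6.89, 7.61 and 8.47 CPM in unanchored post against 12.9, 19.2 and 18.7 CPM in unanchored middle. No post library reached a middle library, and the no-mold libraries, at 7.09, 6.63 and 9.43 CPM, overlapped the post libraries. Post over middle had a log2 fold change of -1.43 (SE 0.19) in anchored and -1.14 (SE 0.18) in unanchored molds. As the tissue was measured in bulk, fewer cells that express a gene and less of its RNA per cell cannot be told apart, here and below.

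NPTX1 (ENSBTAG00000008940) had 14.8, 5.48 and 13.5 CPM in anchored post against 34.0, 31.6 and 36.1 CPM in anchored middle. In unanchored molds it had 17.2, 19.3 and 11.1 CPM at the post against 34.7, 33.1 and 25.3 CPM in the middle, and without a mold 36.5, 26.1 and 32.7 CPM. Its no-mold libraries therefore overlapped the middle libraries and lay above every post library. On the log2 scale, post over middle was -1.59 (SE 0.22) in anchored and -0.98 (SE 0.21) in unanchored molds.

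FGL2 (ENSBTAG00000009717) had 13.2, 20.1 and 15.6 CPM in anchored post against 29.8, 42.0 and 40.1 CPM in anchored middle. The unanchored libraries were at similar levels, with 14.5 to 17.2 CPM at the post against 28.2 to 40.5 CPM in the middle, and the no-mold libraries lay around the gap between them at 21.0 to 29.4 CPM. Post over middle was, as log2 fold change, -1.17 (SE 0.17) in anchored and -1.16 (SE 0.17) in unanchored molds. CHI3L1 (ENSBTAG00000018223) had 71.8, 119.5 and 64.9 CPM in anchored post against 169, 220.2 and 163 CPM in anchored middle, and 66.9, 83.7 and 44.3 CPM in unanchored post against 119.6, 179.9 and 109.9 CPM in unanchored middle. It averaged 85.4 ± 29.7 CPM in anchored post against 184 ± 31.6 CPM in anchored middle, and 65.0 ± 19.8 CPM in unanchored post against 136 ± 37.9 CPM in unanchored middle (SD, n = 3 each), with log2 fold changes of -1.10 (SE 0.21) and -1.07 (SE 0.22). Without a mold it had 117, 93.7 and 79.4 CPM. Anchored post library 2, at 119.5 CPM, reached into the range of unanchored middle (109.9 to 179.9 CPM), so CHI3L1 was the gene of these 4 whose post and middle libraries overlapped once both mold types were put together.

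The 3 membrane genes did not share a direction. SCARA5 (ENSBTAG00000019636) had 3.15, 2.37 and 2.88 CPM in anchored post against 10.1, 9.70 and 13.7 CPM in anchored middle, and 2.95, 6.63 and 4.67 CPM in unanchored post against 10.1, 13.6 and 14.5 CPM in unanchored middle. All post libraries were below all middle libraries, and the no-mold libraries spread over both, at 13.7, 6.63 and 10.9 CPM. Its log2 fold change of post over middle was -2.02 (SE 0.28) in anchored and -1.43 (SE 0.25) in unanchored molds.

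MSLN (ENSBTAG00000000177) was higher at the post. It had 8.48, 6.58 and 7.07 CPM in anchored post against 3.07, 2.16 and 2.04 CPM in anchored middle, and 4.92, 6.05 and 4.32 CPM in unanchored post against 1.70, 2.68 and 2.09 CPM in unanchored middle. No middle library reached a post library, and the no-mold libraries had 5.57, 5.26 and 2.98 CPM. In log2 fold change, post over middle was 1.54 (SE 0.25) in anchored and 1.23 (SE 0.27) in unanchored molds. MSLN rests on few counts, 6 to 54 in a library, and the 6 counts of anchored middle library 2 have an exact Poisson 95% interval of 2.2 to 13.1, which covers counting error only. TMEM158 (ENSBTAG00000031287) differed least in unanchored molds. Its 39.8, 47.5 and 42.9 CPM in anchored post against 29.6, 30.9 and 28.8 CPM in anchored middle did not overlap (log2 fold change 0.55, SE 0.11). In unanchored molds its 36.6 to 40.4 CPM at the post overlapped 28.6 to 37.1 CPM in the middle (0.20, SE 0.11), and the no-mold libraries had 32.3 to 38.5 CPM.

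Of the 3 intracellular genes, DIPK1C was lower at the post and PLAA and ARPC3 were higher there. DIPK1C (ENSBTAG00000000106) had 3.35, 2.19 and 2.49 CPM in anchored post against 9.61, 20.1 and 11.8 CPM in anchored middle, and 4.10, 4.68 and 2.77 CPM in unanchored post against 11.3, 14.5 and 9.07 CPM in unanchored middle. Its log2 fold changes, -2.26 (SE 0.33) and -1.60 (SE 0.31), were the farthest from 0 among the 10 genes in the anchored and in the unanchored molds. Anchored middle library 2, the shallowest molded library, was its highest molded value.

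PLAA (ENSBTAG00000013011) had 42.6, 39.3 and 41.2 CPM in anchored post against 23.5, 26.6 and 29.9 CPM in anchored middle, and 33.6, 35.5 and 36.8 CPM in unanchored post against 25.8, 30.5 and 31.7 CPM in unanchored middle. The groups did not overlap in either mold type, although the difference was modest (log2 fold change 0.62 in anchored and 0.27 in unanchored molds, SE 0.11 each). ARPC3 (ENSBTAG00000005345) was the 1 gene with the larger region difference in unanchored molds: it had 134, 171 and 152 CPM in anchored post against 105, 142 and 111 CPM in anchored middle, which overlapped, and 159.7, 178 and 204 CPM in unanchored post against 114, 111 and 110.4 CPM in unanchored middle, which did not. Its log2 fold changes were 0.37 and 0.69 (SE 0.13 each), and 31.4% of its counts, like 22.1% of those of TMEM158, sat in values that include reads split between genes. For the other 8 genes that share was 0%.

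**Figure D2:**
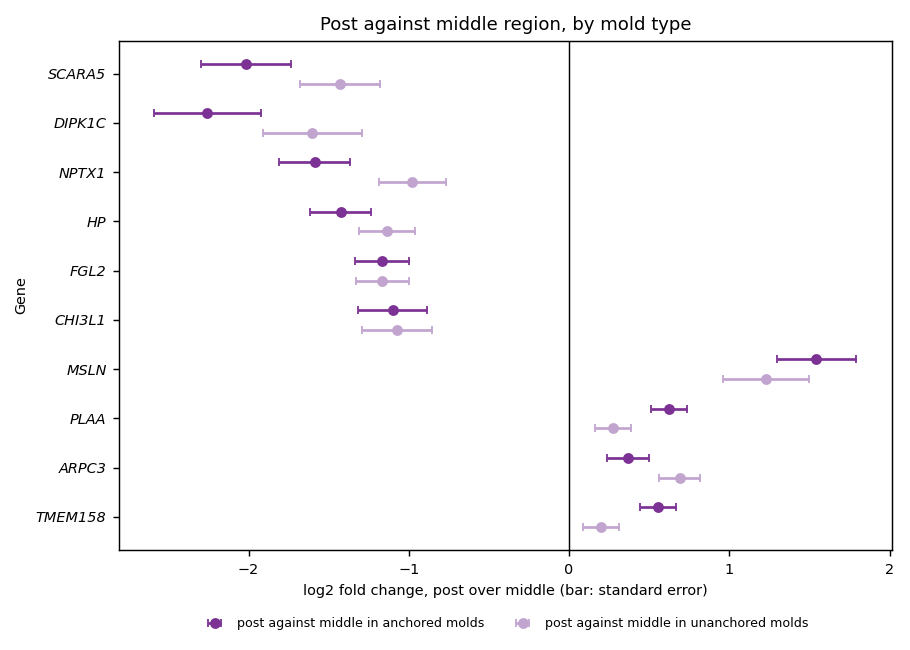
Log2 fold change of post over middle for each gene, with its standard error. Dark points are anchored molds and light points unanchored molds. The 6 genes lower at the post run from -2.26 to -0.98, and the 4 genes higher there from 0.20 to 1.54.

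Across the 10 genes, 6 were lower and 4 higher at the post in both mold types. Libraries of the 2 regions did not overlap for 3 higher and 6 lower genes in anchored molds, where 7.82% and 9.73% of all tested genes were so placed. In unanchored molds they did not overlap for 3 higher and 6 lower genes, against 10.1% and 10.9% of tested genes. With both mold types put together, 2 genes (MSLN and PLAA) were higher and 5 (HP, NPTX1, FGL2, SCARA5 and DIPK1C) lower in every post library than in any middle library, against 1.88% and 2.3% of tested genes. The genes were chosen on these differences, so nothing follows from these shares. The region difference was the larger one in anchored molds for 9 of the 10 genes, for FGL2 and CHI3L1 by little. The share of all tested genes with a larger difference there was not worked out, so nothing is read from this count. The difference between the 2 region differences was 0.35 (SE 0.16) for PLAA and for TMEM158, and -0.61 (SE 0.31) for NPTX1. It was 0.00 (SE 0.24) for FGL2 and -0.03 (SE 0.30) for CHI3L1. It was not tested, since it is built from the differences that chose the genes.

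Set against cells without a mold, the region markers showed different patterns. For FGL2, CHI3L1, TMEM158, HP, MSLN and SCARA5 the no-mold mean lay between the means of the post and the middle groups, at different distances from them. All post libraries lay on 1 side of the no-mold mean and all middle libraries on the other for 4 genes in anchored molds (HP, FGL2, MSLN and TMEM158) and for 2 in unanchored molds (FGL2 and CHI3L1), against 2.39% and 2.77% of tested genes. The choice of the genes favours such counts, so nothing is read from them. HP without a mold was close to the post level: its log2 fold change over no mold was -0.33 (SE 0.25) in anchored post and 0.03 (SE 0.24) in unanchored post, but 1.10 (SE 0.22) in anchored middle and 1.17 (SE 0.21) in unanchored middle. For MSLN the values were 0.62 (SE 0.26) and 0.09 (SE 0.28) in anchored and unanchored post and -0.92 (SE 0.32) and -1.14 (SE 0.32) in anchored and unanchored middle. Its no-mold libraries overlapped those of the anchored middle and lay below every anchored post library.

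NPTX1 and SCARA5 without a mold were close to the middle level. NPTX1 stood at -1.44 (SE 0.24) in anchored post and -0.96 (SE 0.24) in unanchored post, against 0.15 (SE 0.22) and 0.01 (SE 0.22) in anchored and unanchored middle, each as log2 fold change over no mold. SCARA5 stood at -1.76 (SE 0.33) and -1.03 (SE 0.30) in anchored and unanchored post, against 0.25 (SE 0.27) and 0.40 (SE 0.26) in the middle groups. DIPK1C, PLAA and ARPC3 had their highest group mean without a mold. In the middle groups of both mold types, 1 gene (HP) was above and 2 (PLAA and ARPC3) were below every no-mold library, against 11% and 8.72% of tested genes. In the post groups, 0 genes were above and 5 (DIPK1C, NPTX1, FGL2, PLAA and ARPC3) were below, against 9.34% and 8.53% of tested genes. These 4 comparisons share the no-mold libraries and use the libraries that chose the genes, so they were not tested.

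**Figure D3:**
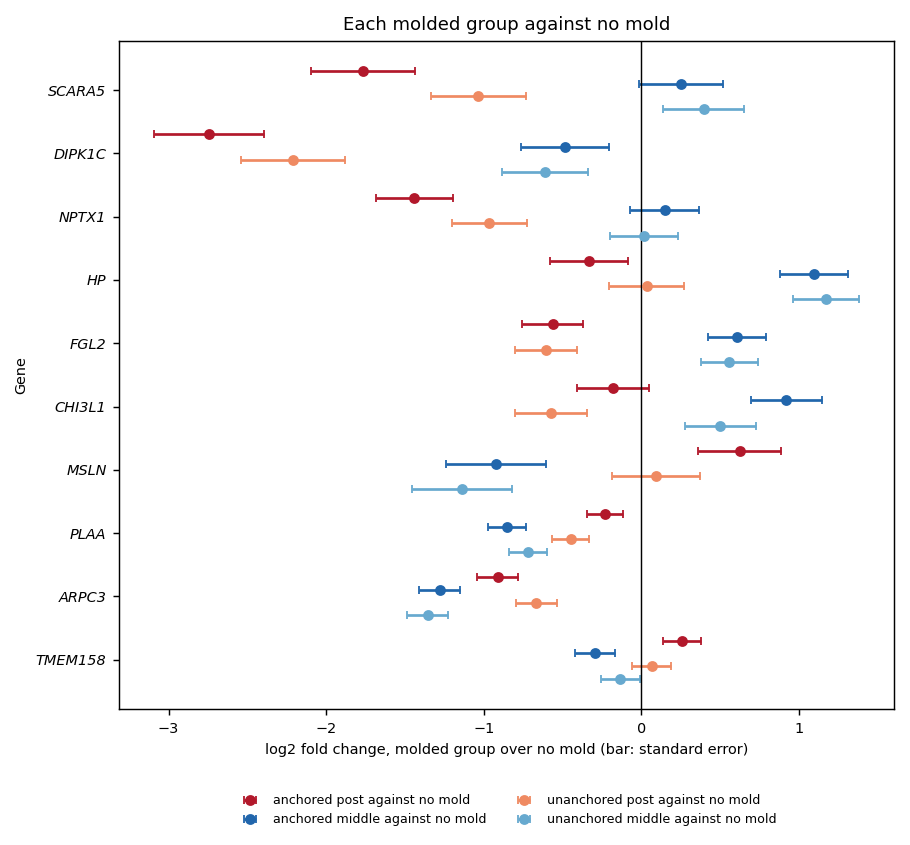
Log2 fold change of each molded group over no mold for each gene, with its standard error. Red points are post and blue points middle groups, dark for anchored and light for unanchored molds. HP lies near 0 at the posts and above 1 in the middle groups, and all 4 groups lie below 0 for DIPK1C, PLAA and ARPC3.

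Averaging the 4 molded groups and setting them against no mold asks how far the mean level with a mold differed from that without. This mean weighs post and middle alike, so it is not itself the region difference, but a change in 1 region alone also moves it. DIPK1C, NPTX1, PLAA and ARPC3 fell with a mold, and no gene of the 10 rose. These 4 of 10 stand beside 16% of all tested genes past the threshold in either direction (1888 genes), 8.04% that rose and 7.91% that fell (edgeR quasi-likelihood test, Benjamini-Hochberg adjusted p under 0.05). The 1888 genes were 1127 when no-mold library 1 was left out and 856 when library 3 was. The median log2 fold change of the 10 genes was -0.44, against 0.00 over all tested genes. The genes were chosen for a region difference, so neither this median nor the count is read as an effect of molding on the set.

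ARPC3 averaged 152 ± 18.5 CPM in anchored post, 119 ± 19.9 in anchored middle, 181 ± 22.1 in unanchored post and 112 ± 2.04 in unanchored middle, against 288 ± 49.4 CPM without a mold (SD, n = 3 each). Its lowest no-mold library, at 235 CPM, was above its highest molded library, at 204 CPM. The log2 fold change was -1.05 (SE 0.10, edgeR's adjusted p = 2.49e-07). PLAA averaged 41.0 ± 1.67 CPM in anchored post, 26.7 ± 3.22 in anchored middle, 35.3 ± 1.61 in unanchored post and 29.3 ± 3.13 in unanchored middle, against 47.8 ± 3.31 CPM without a mold (SD, n = 3 each), again without overlap (log2 fold change -0.56, SE 0.10, edgeR's adjusted p = 0.000319). ARPC3 and PLAA thus had their highest levels without a mold, intermediate levels at the post and their lowest levels in the middle. They were 2 genes lower in every molded than in any no-mold library, as were 4.29% of tested genes, and 0 of the 10 were higher in every molded library, as were 5.64%.

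DIPK1C averaged 2.68 ± 0.603 CPM in anchored post, 13.8 ± 5.54 in anchored middle, 3.85 ± 0.982 in unanchored post and 11.6 ± 2.74 in unanchored middle, against 19.1 ± 8.70 CPM without a mold (SD, n = 3 each). The no-mold libraries had 28.9, 12.1 and 16.4 CPM and overlapped the middle groups. The log2 fold change of the molded mean was -1.51 (SE 0.25, edgeR's adjusted p = 0.000213). It was -2.74 (SE 0.35) and -2.21 (SE 0.33) in anchored and unanchored post, and -0.49 (SE 0.28) and -0.61 (SE 0.27) in anchored and unanchored middle. NPTX1 stood at -0.56 on the log2 scale (SE 0.19, edgeR's adjusted p = 0.043), with the middle groups at the no-mold level. That call was lost on leaving out no-mold library 1 (adjusted p = 0.213) or 3 (0.16), and without unanchored post library 3 (0.0521) or unanchored middle library 3 (0.0529), all by edgeR.

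The other 6 genes did not pass. HP stood at 0.49 on the log2 scale (SE 0.20, edgeR's adjusted p = 0.0928), a value that passed without unanchored middle library 1 (0.0433). SCARA5 had -0.54 (SE 0.24, edgeR's adjusted p = 0.136) and passed without no-mold library 2 (0.037), the library in which it was lowest. MSLN had -0.34 (SE 0.25), CHI3L1 0.17 (SE 0.18), TMEM158 -0.03 (SE 0.10) and FGL2 0.00 (SE 0.15), with edgeR's adjusted p from 0.398 to 0.997. For FGL2 the molded mean at the no-mold level averages middle groups above it and post groups below it.

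The comparison of anchored with unanchored molds, averaged over the regions, asks what the post anchors changed, and it too weighs post and middle alike. None of the 10 genes passed, as none of the 11834 tested genes did (0% called by edgeR, 0 genes by DESeq2, 648 genes at an unadjusted p under 0.05 by edgeR). Without the filter on low counts 66 genes passed, among them CHI3L1 (edgeR's adjusted p = 0.000444) and none of the other 9. The 2 genes at an unadjusted p under 0.05 were CHI3L1 and SCARA5. CHI3L1 stood at 0.41 on the log2 scale (SE 0.15, edgeR's adjusted p = 0.86) and SCARA5 at -0.44 (SE 0.20, adjusted p = 0.886), and their anchored and unanchored libraries overlapped. The libraries of all 10 genes did so, while 0.118% of tested genes were higher and 0.0845% lower in every anchored than in any unanchored library. Each side pools post and middle libraries, between which the genes were chosen to differ, so that choice favours overlap. Nothing is read from it. MSLN had 0.37 (SE 0.19, edgeR's adjusted p = 0.911). The remaining 7 genes lay between -0.22 and 0.05. Depth and 3 libraries a group limit this comparison, and a p that misses the threshold does not show that levels were alike.

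**Figure D4:**
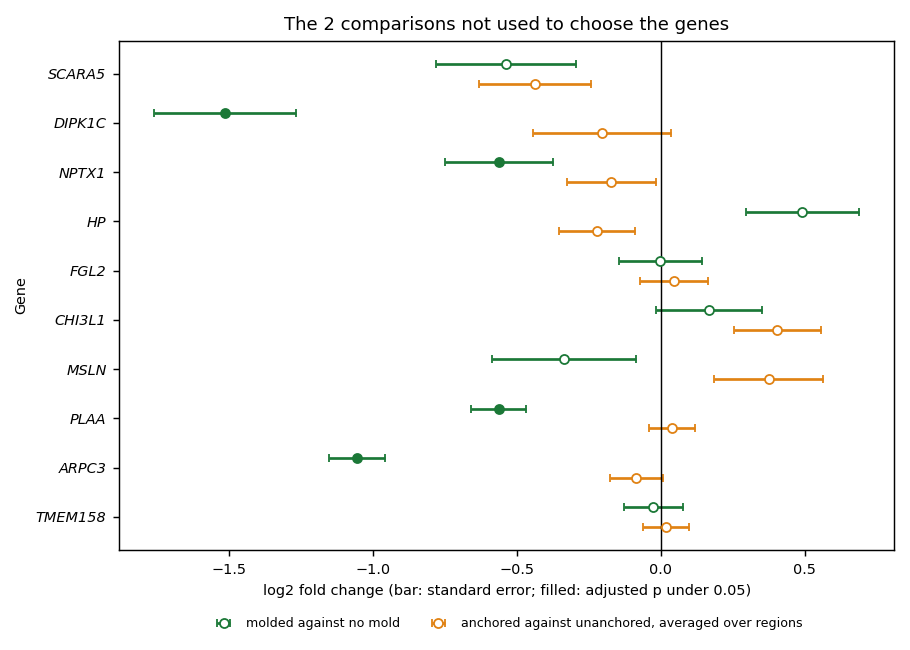
Log2 fold change of each gene, with its standard error, in the mean of the molded groups over no mold (green) and in anchored over unanchored molds averaged over regions (orange). Filled points passed at an adjusted p of 0.05. DIPK1C, NPTX1, PLAA and ARPC3 are filled below 0 for molded over no mold, and no point is filled for anchored over unanchored.

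Genes whose levels most resembled those of the region markers were ranked by Pearson's r of log2 CPM over the 15 libraries, which share their 5 groups and their depth, so r is a description without a p. HP was most like IGFBP3 (r = 0.92, Spearman's rho 0.88), the main carrier of insulin-like growth factors, which averaged 548 CPM in anchored post, 1204 in anchored middle, 695 in unanchored post and 1328 in unanchored middle, against 597 CPM without a mold. FGL2 was most like SLC40A1 (r = 0.92, rho 0.91), the iron exporter ferroportin. CHI3L1 was most like MGP (r = 0.92, rho 0.90), the calcification inhibitor matrix Gla protein, at 503 and 853 CPM in anchored post and middle, 453 and 631 CPM in unanchored post and middle, and 552 CPM without a mold.

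SCARA5 was most like CALCRL (r = 0.92, rho 0.88), the receptor subunit for adrenomedullin and CGRP, and next like HSD11B2 (r = 0.89, rho 0.78), the enzyme that inactivates cortisol. HSD11B2 averaged 4.92 and 16.2 CPM in anchored post and middle, 6.43 and 13.1 CPM in unanchored post and middle, and 12.6 CPM without a mold. DIPK1C was most like MED13L (r = 0.94, rho 0.94) and PKD1 (r = 0.94, rho 0.92), the gene of polycystin 1, and NPTX1 like AKAP13 (r = 0.93, rho 0.85), an anchor of protein kinase A that also activates RHOA. Of the genes higher at the post, ARPC3 was most like OAZ1 (r = 0.95, rho 0.86), the brake on polyamine synthesis, PLAA like DESI1 (r = 0.91, rho 0.92), and MSLN like DAXX (r = 0.89, rho 0.86). CREG1 was the gene most like TMEM158 (r = 0.82, rho 0.78) and the second most like MSLN (r = 0.84, rho 0.87).

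Lists of genes related to the 10 by family or function showed few region differences. Of all tested genes, 0.254% were higher and 1.66% lower at the anchored post, and 0.0676% higher and 0.38% lower at the unanchored post (edgeR's adjusted p under 0.05). Iron and heme handling, the field of SCARA5 and HP, was the list with differences in both directions: of 13 tested genes, 2 were higher and 1 lower at the anchored post, and 0 higher and 1 lower at the unanchored post (median log2 fold change 0.07 and 0.05, against 0.00 and -0.01 over all genes). SLC40A1 averaged 50.9 ± 4.91 CPM in anchored post against 80.6 ± 5.17 CPM in anchored middle, and 50.7 ± 4.58 CPM in unanchored post against 77.1 ± 12.4 CPM in unanchored middle, with 61.5 ± 1.40 CPM without a mold (SD, n = 3 each). It was lower by edgeR in anchored molds (log2 fold change -0.65, SE 0.11, adjusted p = 0.00228) and in unanchored molds (-0.60, SE 0.11, adjusted p = 0.0145). The unanchored call ended without post library 2 (adjusted p = 0.0592) or 3 (0.153) or middle library 2 (0.228).

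The ferritin subunits FTH1 and FTL, which store iron and are the cargo of SCARA5, were higher at the anchored post. FTH1 averaged 2537 ± 301 CPM in anchored post against 1774 ± 194 CPM in anchored middle (SD, n = 3 each), a log2 fold change of 0.52 (edgeR's adjusted p = 0.0177). FTL had 0.44 (adjusted p = 0.0298). In unanchored molds the values had the same sign but did not pass: FTL had 0.43 (edgeR's adjusted p = 0.0729), with 604 to 728 CPM at the post against 476 to 535 CPM in the middle, and FTH1 had 0.36 (0.163), with 2114 to 2139 CPM at the post against 1604 to 1755 CPM in the middle. Neither gene's unanchored libraries overlapped between regions. Leaving out anchored post library 2 or 3 or anchored middle library 3 ended the FTH1 call (adjusted p = 0.0701, 0.0507 and 0.114), and leaving out any anchored post library or anchored middle library 3 ended the FTL call (0.0611 to 0.154). All counts of both genes, 100%, were in values with reads split between genes, and which ferritin copy was read is uncertain. Against no mold, where 7.91% of all tested genes fell and 8.04% rose, 4 of the 13 iron genes fell and 0 rose: FTH1 by 0.86, HMOX1 (heme oxygenase) by 0.84, BLVRB (biliverdin reductase) by 0.43 and FTL by 0.39 on the log2 scale (edgeR's adjusted p = 5.86e-07, 1.33e-05, 0.0121 and 0.00256). The BLVRB call was lost on leaving out no-mold library 1 (0.0882) or 3 (0.0831), and the FTL call without no-mold library 3 (0.0746).

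**Figure D5:**
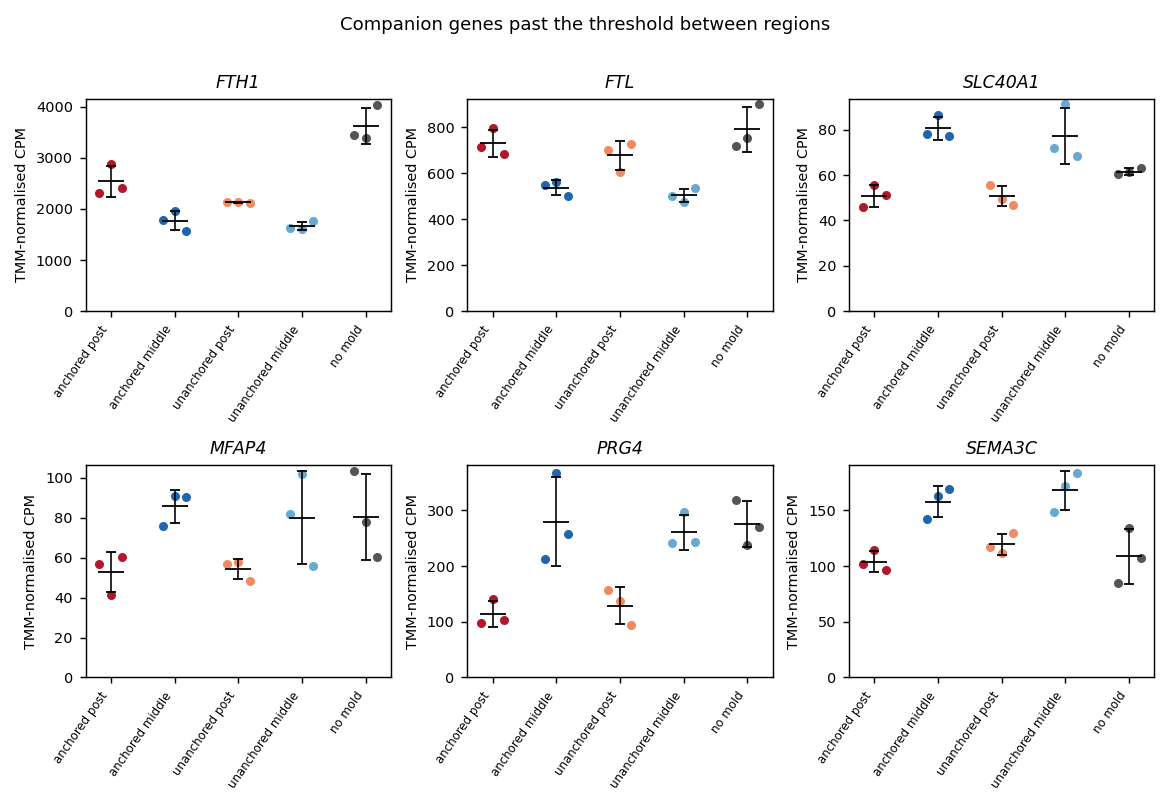
Level of the 6 genes of the related lists that passed the threshold between regions in at least 1 mold type. The y axis is TMM-normalised CPM from 0, points are libraries and the bar is the group mean with its SD (n = 3). SLC40A1, PRG4, SEMA3C and MFAP4 are lower at the anchored post than in the anchored middle, and FTH1 and FTL are higher.

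Of 12 tested markers of superficial and progenitor-like fibroblasts, to which SCARA5 belongs as well, 2 were lower at the anchored and 1 at the unanchored post and 0 were higher (median log2 fold change -0.18 and -0.19). PRG4, the gene of lubricin, had -1.29 (SE 0.18) in anchored and -1.01 (SE 0.18) in unanchored molds (edgeR's adjusted p = 0.000455 and 0.0134), with 80.6% of its counts in values with split reads. The unanchored call ended without post library 3 (adjusted p = 0.141) or middle library 2 (0.129). SEMA3C, a guidance cue, averaged 104 ± 9.08 CPM in anchored post against 158 ± 14.3 CPM in anchored middle (SD, n = 3 each; log2 fold change -0.60, edgeR's adjusted p = 0.0109). That call ended without anchored post library 1 (0.0517) or 3 (0.0839) or anchored middle library 3 (0.072). Against no mold, 1 of the 12 rose and 2 fell (8.04% and 7.91% of all tested genes): THY1, a fibroblast surface protein, rose by 0.83 on the log2 scale (edgeR's adjusted p = 1.11e-05), and PRG4 and CREB5 fell by 0.60 and 0.63 (0.0046 and 0.00767). The PRG4 call was lost on leaving out no-mold library 1 (0.0701), and the CREB5 call without no-mold library 1 (0.0546) or 3 (0.0885).

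Of the relatives of FGL2, 8 proteins with a fibrinogen-like domain, 1 was lower at the anchored post: MFAP4 (log2 fold change -0.69, edgeR's adjusted p = 0.0438), a call that ended in 10 of 20 alternatives, among them without each of the 3 anchored post libraries. Against no mold, 4 of the 8 rose and 1 fell, beside 8.04% and 7.91% of all tested genes (median log2 fold change 0.53, against 0.00). ANGPT1, ANGPTL5 and TNC rose by 1.80, 1.38 and 1.00 on the log2 scale (edgeR's adjusted p = 2.25e-05, 7.49e-08 and 2.92e-05), while FGL2 did not pass. The tested relative of NPTX1, the pentraxin PTX3, had higher means at the post in both mold types and its lowest mean without a mold. It averaged 13.8 CPM in anchored post against 9.04 CPM in anchored middle and 14.0 CPM in unanchored post against 7.38 CPM in unanchored middle, with 4.46 CPM without a mold. PTX3 rose with a mold by 1.50 on the log2 scale (SE 0.31, edgeR's adjusted p = 0.00198), a call lost when leaving out no-mold library 2 (0.0917), and its region differences of 0.70 and 0.91 did not pass (0.147 and 0.0856).

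In the remaining lists, 0 genes other than the region markers passed between regions in either mold type. Their counts against no mold stand beside 8.04% of all tested genes that rose and 7.91% that fell. Of 9 tested acute phase and serum protein genes other than HP, PTX3 and STAT3 rose and SOCS3 fell against no mold. STAT3 had a log2 fold change of 0.31 and SOCS3 of -0.70 (edgeR's adjusted p = 0.0144 and 0.00479), and the STAT3 call was lost on leaving out no-mold library 2 (0.0899) or 3 (0.123). For STAT3, 39.8% of counts sat in values with split reads. Of 15 other genes of the ARPC3 complex and its activators, 2 rose and 4 fell against no mold (median log2 fold change -0.03). ACTR3 and ACTR2, the actin-related core subunits, rose by 0.39 and 0.36 on the log2 scale (edgeR's adjusted p = 0.00592 and 0.0101), and ARPC1B and ARPC1A fell by 0.30 and 0.27 (0.00941 and 0.00947), against the fall of 1.05 of ARPC3. Each of these 4 calls ended without at least 1 no-mold library: ACTR3 without 1 (0.0613) or 3 (0.0778), ACTR2 without 1 (0.11) or 3 (0.0723), ARPC1B without 1 (0.0554) or 3 (0.072), and ARPC1A without 2 (0.0671). From 33.6% to 74.0% of their counts sat in values with split reads.

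Of 13 cofactors of PLAA and VCP, 2 rose against no mold while PLAA fell: UBXN4 by 0.37 and NSFL1C by 0.31 on the log2 scale (edgeR's adjusted p = 0.00167 and 0.0178), NSFL1C not without no-mold library 1 (0.103) or 2 (0.0807). Of 7 other secretory pathway kinases, 2 rose against no mold while DIPK1C fell: POMK by 0.66 and DIPK1A by 0.46 (edgeR's adjusted p = 0.0144 and 0.00973), calls that ended without no-mold library 3 (0.103 and 0.112), and for POMK also without library 1 (0.0685). Of 14 RAS-ERK output genes other than TMEM158, 3 fell and 0 rose, among them FOSL1 by 0.87 and DUSP5 by 0.67 (edgeR's adjusted p = 2.92e-05 and 0.00185). For DUSP5, 43.9% of counts sat in values with split reads. Of 7 tested scavenger receptors other than SCARA5, OLR1 fell by 1.46 (edgeR's adjusted p = 6.8e-05). OLR1 had group means of only 2.26 to 8.16 CPM, with 61.0% of its counts in values with split reads. The 1 tested chitinase family member other than CHI3L1, CHID1, fell by 0.25 (0.0357), a call that ended in 10 of 20 alternatives, among them without any 1 of the no-mold libraries. No listed gene passed for anchored against unanchored molds.

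Several of the 10 genes are known as markers of other cells, and further markers of those cells were read in the same libraries. Of 10 mesothelial genes in the table other than MSLN, 4 were tested, LRRN4 was at 0 counts and WT1 had 11 counts over all libraries. Their summed level was 15.1 to 20.6 CPM in anchored post against 15.2 to 19.9 CPM in anchored middle, which overlapped, and 16.97 to 21.9 CPM in unanchored post against 14.8 to 16.7 CPM in unanchored middle, which did not, with 15.3 to 28.6 CPM without a mold. Sums of markers, here and below, are in CPM of the library total, without TMM scaling. Of the 4 tested genes, BNC1 had group means of 8.67 to 9.91 CPM and log2 fold changes of post over middle of -0.17 in anchored and 0.06 in unanchored molds. The keratins KRT18 (0.51 and 0.89) and KRT19 (1.50 and 0.47) and UPK1B (0.56 and 1.20) had positive values in both mold types, as MSLN did, at edgeR's adjusted p from 0.186 to 0.706. The list median was 0.53 in anchored and 0.68 in unanchored molds, and its part in the MSLN result was not tested. Of 11 neural genes, TUBB3 and MAP2 were tested, ELAVL4 and NEFL were at 0, and SYT1 had 4 counts. The neural sum was 58.2 to 65.1 CPM in anchored post against 68.1 to 72.2 in anchored middle and 58.9 to 61.2 in unanchored post against 66.8 to 74.8 in unanchored middle, with 53.2 to 60.8 CPM without a mold. It was thus higher in the middle than at the post, as NPTX1 was. Unlike NPTX1, its no-mold libraries lay below the middle groups. MAP2 had log2 fold changes of post over middle of -0.31 in anchored and -0.31 in unanchored molds (edgeR's adjusted p = 0.151 and 0.188) and TUBB3 of 0.02 and -0.02. All counts of TUBB3, 100%, sat in values with split reads. The part of this list in the NPTX1 result was not tested.

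Of 14 leukocyte and macrophage genes, 3 were tested, ITGAM was at 0 and PTPRC had 25 counts over all libraries. Their sum was 8.17 to 15.7 CPM in the molded groups against 9.85 to 16.7 CPM without a mold. The 8 endothelial genes had too few counts to be tested, and their sum was at most 2.34 CPM. Of 13 hepatocyte genes, 8 were tested. Their sum was 107.9 to 169.6 CPM in anchored post, 83.1 to 178.9 in anchored middle, 111.7 to 168.6 in unanchored post and 76.4 to 101.3 in unanchored middle, against 133.8 to 267.6 CPM without a mold. The sum overlapped between post and middle in anchored molds and was lower in the middle without overlap in unanchored molds, and its part in the HP result was not tested. Of the 8 tested genes, 1 rose and 3 fell against no mold (edgeR, adjusted p under 0.05), beside 8.04% and 7.91% of all tested genes. TTR was the gene that rose, with a log2 fold change of 1.17 and edgeR's adjusted p at 0.00415. Its molded group means ran from 8.23 to 12.4 CPM, above the 4.65 CPM without a mold. APOA1 had -1.11 (edgeR's adjusted p = 1.23e-05), AFP -0.92 (0.021) and ALB -0.96 (0.0479). Split reads entered values holding 81.1% of the APOA1 counts. AFP and ALB, serum proteins made by the fetal liver, averaged at most 61.0 and 18.8 CPM in a molded group, against 95.4 and 33.6 CPM without a mold. The part of TTR, APOA1, AFP and ALB in the comparison with no mold was not tested.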

How the data were processed

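Polyadenylated RNA of 15 libraries was captured with oligo-dT primers that carry sample barcodes and unique molecular identifiers, per the labels' protocols. The submitters' processing notes list featureCounts of Subread 2.1.1, STAR 2.7, SAMtools 1.21 and MultiQC 1.33. Not given in the sources used here: the build, the annotation and any use of the molecular identifiers. The authors deposited 2 columns per library: expected counts, not all whole, and CPM, which equalled the count over the column total.

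Here, 92 spike-in rows were left out, expected counts were rounded, and 11834 genes passed filterByExpr (count 10, total 15). One quasi-likelihood model over the 15 libraries with a mean per group and TMM scaling was fitted (edgeR 4.0.16, limma 3.58.1, R 4.3.3). A standard error is the absolute log2 fold change over the square root of the F statistic. P-values were two-sided and adjusted over all tested genes (Benjamini-Hochberg, 0.05). The model was also run on simulated counts with the same spread for every gene, which real counts need not have, so no result here rests on it. DESeq2 1.42.0, DESeq2 size factors, no count filter, a replicate block and left-out libraries were alternatives.

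The 10 genes, the gene lists and the comparisons were chosen with earlier results of these data known. All 10 genes are named, with the 2 genes most like each of them by Pearson's r among genes with 1 identifier and a mean of at least 10 CPM (not all are printed), and up to 4 called genes of a list by smallest p. Every pair of libraries of 1 group had larger differences than sampling of reads gives (chi-square over its degrees of freedom 2.74 to 12.6), and each library was kept as its own sample. Pairs from different groups ran from 1.82 to 19.9, so some were more alike than any pair of 1 group. Figures were drawn with matplotlib 3.10.9.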

Additional observations from a re-analysis of the deposited data

Results flagged for a closer look

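For 5 of the 10 genes, all post libraries of a mold type lay on 1 side of the no-mold mean and all middle libraries of that mold type on the other. This held for 4 genes in anchored and 2 in unanchored molds, against 2.39% and 2.77% of the 11834 tested genes. The difference between the regions was not tested, since it chose the genes, and that choice favours such a count. Values are log2 fold changes over no mold. FGL2 did so in both mold types, with -0.56 in anchored post and 0.61 in anchored middle, and with -0.61 in unanchored post and 0.56 in unanchored middle. CHI3L1 did so in unanchored molds, with -0.57 at the post and 0.50 in the middle. HP did so in anchored molds, with -0.33 at the post and 1.10 in the middle. MSLN and TMEM158 did so in anchored molds in the other direction, MSLN with 0.62 at the post and -0.92 in the middle, TMEM158 with 0.26 at the post and -0.29 in the middle.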

How the results depend on the processing

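The region differences of all 10 genes kept their sign in all 190 alternative values in anchored and all 190 in unanchored molds, and moved by less than the spread between replicates. For molded against no mold, DIPK1C, PLAA and ARPC3 passed in all 20 alternatives, with the highest adjusted p at 0.0446, 0.0156 and 0.000556. The count of genes past the threshold, 1888, was 856 to 2297 with 1 library left out (1127 without no-mold library 1, 856 without 3) and 335 without the 3 shallowest libraries, where the lone no-mold library is taken to vary as much as the rest and NPTX1 did not pass (adjusted p = 0.636). For anchored against unanchored molds, the count of genes, 0, was 66 without a count filter, among them CHI3L1 (adjusted p = 0.000444, log2 fold change 0.41) as the 1 region marker, and 1 with the replicate block. It was 0 to 1 with 1 library left out. The cause was not tested. Values near 0 changed sign without a call: FGL2 for molded against no mold was 0.0433 without a count filter, 0.00961 with the replicate block, 0.18 without the 3 shallowest libraries and -0.14 to 0.13 with 1 library left out. TMEM158 was 0.0201 without a count filter and -0.0875 to 0.0161 with 1 library left out, and SCARA5 was 0.0063 without the 3 shallowest libraries. For anchored against unanchored molds, FGL2 was -0.0421 to 0.12, PLAA -0.0152 to 0.0925 and TMEM158 -0.0296 to 0.0665 with 1 library left out. Whether replicate numbers pair the libraries is not settled by the labels. Over 30 same-numbered pairs of libraries, the correlation of deviations from group means was -0.17 to 0.26 (median 0.02). Between post and middle it was 0.0916, 0.107 and 0.264 for the same number in unanchored molds, where each library correlated best with its own number, and -0.0288, 0.0791 and 0.138 in anchored molds, so the pairs were not all over 0.1 and the numbers were not used as pairs. The replicate block changed no call of the 10 genes, and it left 1877 genes for molded against no mold. Of the 30 calls of related genes for molded against no mold, 21 were lost without the 3 shallowest libraries. Alternatives for related genes were added after seeing the data.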

Other observations

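After removal of group means, the 15 pairs among the 6 genes lower at the post had correlations of log2 CPM over the 15 libraries from -0.34 to 0.54 (median 0.24, 12 of 15 positive), and the 6 pairs among the 4 genes higher at the post from -0.59 to 0.11 (median -0.09, 2 of 6 positive). The 24 pairs of 1 lower and 1 higher gene ran from -0.70 to 0.60 (median 0.14, 14 of 24 positive). These values are a description of shallow counts that share libraries and depth. The strongest single value was HP with TMEM158, at -0.70, a pair chosen after its value was seen.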
